A study of Homo sapiens with 6 samples.

Results

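Genes of glycolysis and of the hypoxia response were followed in libraries labelled SW480, the name of a human colorectal adenocarcinoma line, after treatment with TGF-β1, a secreted cytokine that signals through receptor kinases to SMAD transcription factors. The 40 genes were chosen by symbol. They comprise 24 genes of glucose uptake, glycolysis and lactate handling and 16 genes of oxygen sensing and of the response to low oxygen, out of 56638 gene symbols in the count tables, and 39 had enough counts to be tested. The TGFB1 group (3 libraries) came from cells given TGF-β1 at 10 ng/ml, which the labels say was applied more than 4 times. The control group (3 libraries) came from untreated cells of the same line, and all libraries carry passages 16 to 19. Total RNA was sequenced, and the length of exposure is not given. Both groups are 1 cell line grown in medium with serum, and no oxygen level, glucose uptake or lactate output was measured.

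Glycolysis splits glucose into pyruvate in a chain of cytosolic enzymes that yields ATP without oxygen, and lactate dehydrogenase then reduces pyruvate to lactate, which monocarboxylate transporters carry out of the cell. Most steps can be served by several isozymes encoded by separate genes. Hypoxia-inducible factors (HIFs) are transcription factors whose α subunits, HIF1A and EPAS1, are hydroxylated by the EGLN enzymes when oxygen is present, bound by the VHL ubiquitin ligase and degraded. When oxygen is low the α subunits persist, pair with ARNT and activate many glycolytic genes along with genes of acid-base balance, mitophagy and angiogenesis. Much of this control acts on protein stability, which RNA counts do not show.

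Libraries TGFB1 1, 2 and 3 held 14521761, 16005222 and 13012898 counts in genes, and libraries control 1, 2 and 3 held 13828306, 14803613 and 15298355. Levels below are CPM, a gene's counts relative to the TMM-scaled total of its library. They are given as mean ± SD over 3 libraries. A positive log2 fold change, shown with its standard error (SE), is higher in TGFB1 libraries. A gene was called changed when its adjusted p was under 0.05 by the quasi-likelihood test of edgeR, with p-values adjusted by Benjamini and Hochberg's method over all 14897 tested genes. Separate cultures are not mentioned for the libraries of a group. The p-values therefore cover only how far these samples varied, and that variation may be technical. Known targets of the pathway followed the labels, with TGFBI at 675 ± 16.4 CPM in TGFB1 and 14.6 ± 2.04 CPM in control libraries. Of 14 epithelial and colorectal markers 9 stayed under 1 CPM in all 6 libraries, among them CDX2, VIL1, CEACAM5 and KRT20, so that defining markers of colorectal epithelium were at or near 0 and go against the labelled cell type. KRT8, an epithelial keratin, stood at 1675 ± 20.5 CPM in TGFB1 and 1708 ± 1.27 CPM in control libraries (edgeR adjusted p = 0.628). KRT18, another epithelial keratin, stood at 125 ± 2.59 CPM in TGFB1 and 183 ± 7.35 CPM in control libraries (edgeR adjusted p = 1.73e-10). Of the 5 epithelial markers tested 1 rose (20%) and 3 fell (60%), against 23.4% and 23.9% of all tested genes. LGR5, which rose, would not have passed the count filter on its control libraries alone (46 counts in TGFB1, 13 in control). CDH1, which fell, would not have passed on its TGFB1 libraries alone (12 counts in TGFB1, 47 in control). Fibroblast markers summed to 119.9 to 136 CPM in TGFB1 and 90.8 to 94.9 CPM in control libraries. COL1A1 led this sum, at 105 ± 5.38 CPM in TGFB1 and 81.2 ± 2.63 CPM in control libraries. All 5 of 10 that could be tested rose (100%, against 23.4% of all tested genes). Among them FAP (51 counts in TGFB1, 1 in control) and THY1 (52 and 23) would not have passed the count filter on their control libraries alone. The filter thus favoured a rise in these genes. COL1A2, COL3A1, PDGFRA and POSTN had at most 3 counts over a group. Endothelial and blood markers summed to 0.904 to 1.22 CPM in TGFB1 and 3.59 to 4.601 CPM in control libraries. The part of any of these markers in the results below was not tested.

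The 40 genes moved in both directions, with fewer rises than falls. SLC2A3 had too few counts to be tested. Of the 39 tested genes 6 rose, 12 fell and 21 did not pass, which is 46.2% called, where 47.3% of all tested genes were called. The 6 that rose make 15.4% of the 39, against 23.4% of all tested genes that rose, and the 12 that fell make 30.8%, against 23.9%. The median log2 fold change of the 39 genes was -0.10 and their median absolute log2 fold change 0.15, beside 0.00 and 0.24 over all tested genes. A fitted change of at least 1.5-fold was reached by 2 genes that rose and 5 that fell, where 20.2% of all tested genes reached it, and at least 2-fold by 4 of the 39 genes, where 9.53% did. All TGFB1 libraries lay above all control libraries in 7 of the 39 genes and below them in 18, against 26.9% and 27.3% of all tested genes (54.2% in either direction). In bulk RNA, fewer cells with a transcript and less of it per cell cannot be told apart.

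**Figure D1:**
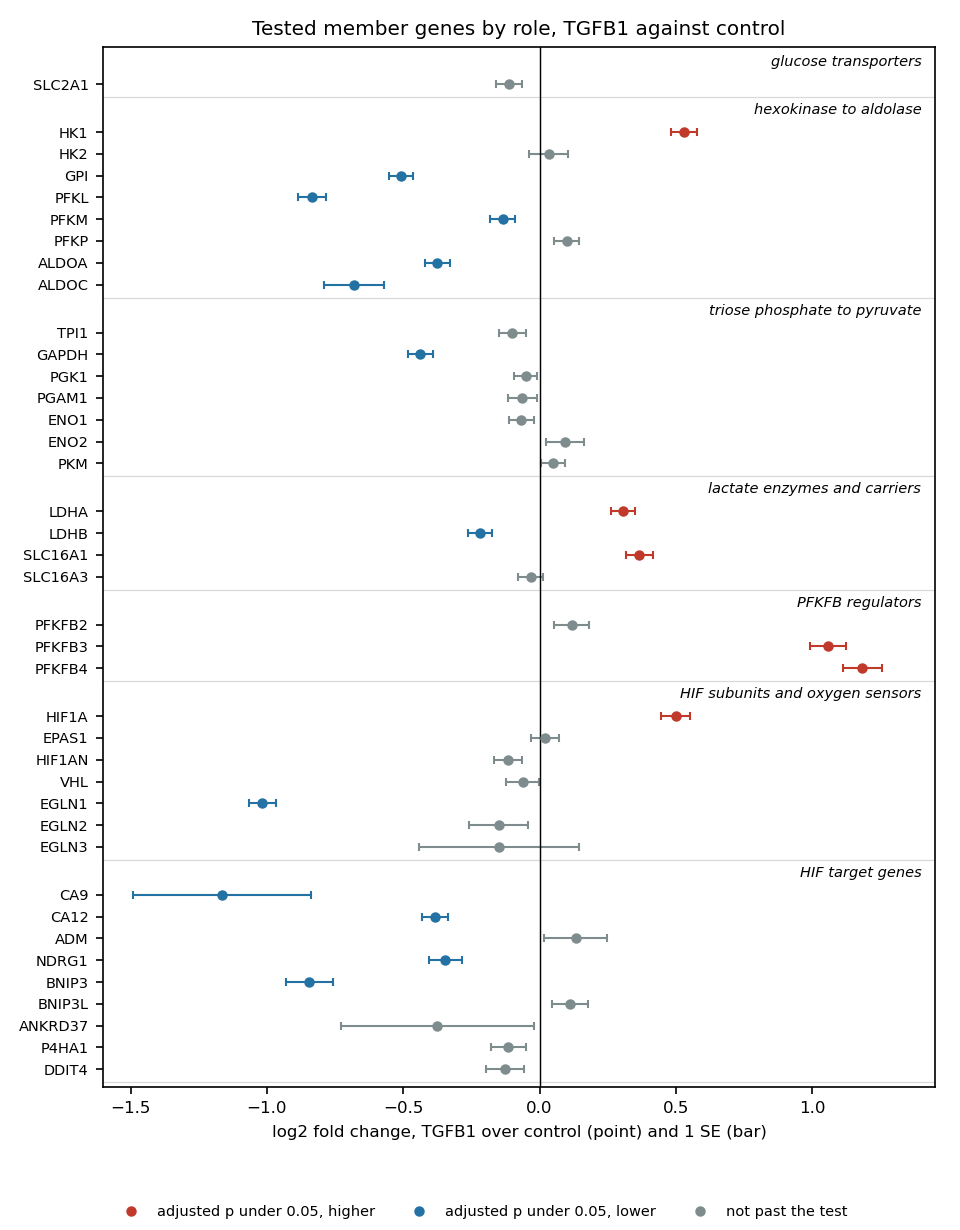
Log2 fold change of TGFB1 over control for the 39 tested genes, grouped by role, with points for the fitted value and bars for 1 SE. PFKFB4 (1.18) and PFKFB3 (1.06) lie farthest to the right and CA9 (-1.16) and EGLN1 (-1.02) farthest to the left, while most enzymes from TPI1 to PKM lie near 0.

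The promoters of 6 of these genes are shown because they belong to the results that follow: the pair of lactate dehydrogenase genes that moved apart, the PFKFB genes that rose most, the oxygen sensor EGLN1 and the HIF target BNIP3. Each is the 250 bases before the annotated start, read in the direction of the gene, from the RefSeq promoter table on GRCh38.p14, which is a later build than the one used for counting. Capitals mark ACGTG or GCGTG, the core letters of the hypoxia response element, found on either strand (CACGT and CACGC on the other one). The run CACGTG holds ACGTG on both strands and is also the E-box of other factors. LDHA lies at chr11:18394313-18394562 (plus strand), LDHB at chr12:21657843-21658092 (minus strand), PFKFB3 at chr10:6144671-6144920 (plus strand), PFKFB4 at chr3:48556804-48557053 (minus strand), EGLN1 at chr1:231422288-231422537 (minus strand) and BNIP3 at chr10:131981924-131982173 (minus strand).
LDHA: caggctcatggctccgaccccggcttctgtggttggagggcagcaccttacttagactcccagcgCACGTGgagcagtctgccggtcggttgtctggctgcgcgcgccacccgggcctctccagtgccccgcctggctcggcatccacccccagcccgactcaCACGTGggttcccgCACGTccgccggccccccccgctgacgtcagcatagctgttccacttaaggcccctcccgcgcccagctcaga
LDHB: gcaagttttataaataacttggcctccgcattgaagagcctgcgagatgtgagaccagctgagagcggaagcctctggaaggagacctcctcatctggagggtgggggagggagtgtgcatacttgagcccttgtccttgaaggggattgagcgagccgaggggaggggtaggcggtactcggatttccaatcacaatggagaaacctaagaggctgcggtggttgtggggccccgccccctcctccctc
PFKFB3: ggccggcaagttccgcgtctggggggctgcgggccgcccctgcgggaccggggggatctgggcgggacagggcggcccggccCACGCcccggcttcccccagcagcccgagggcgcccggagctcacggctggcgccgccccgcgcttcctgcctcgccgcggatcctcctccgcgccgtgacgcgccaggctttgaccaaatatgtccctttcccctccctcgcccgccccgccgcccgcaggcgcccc
PFKFB4: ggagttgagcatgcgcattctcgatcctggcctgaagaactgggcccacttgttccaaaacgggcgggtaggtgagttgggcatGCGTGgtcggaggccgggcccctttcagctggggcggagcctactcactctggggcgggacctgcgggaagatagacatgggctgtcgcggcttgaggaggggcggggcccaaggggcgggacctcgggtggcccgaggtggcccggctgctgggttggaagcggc
EGLN1: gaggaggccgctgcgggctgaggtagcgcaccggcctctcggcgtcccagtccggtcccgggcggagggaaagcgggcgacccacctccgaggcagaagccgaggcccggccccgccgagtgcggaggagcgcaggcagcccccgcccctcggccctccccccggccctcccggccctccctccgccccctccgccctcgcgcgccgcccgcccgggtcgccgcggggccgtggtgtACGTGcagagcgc
BNIP3: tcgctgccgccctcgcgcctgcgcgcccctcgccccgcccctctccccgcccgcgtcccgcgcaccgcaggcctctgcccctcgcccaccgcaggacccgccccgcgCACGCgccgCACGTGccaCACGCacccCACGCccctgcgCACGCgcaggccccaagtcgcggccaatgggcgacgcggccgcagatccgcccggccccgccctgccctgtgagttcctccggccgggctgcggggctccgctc
The LDHA window has 3 separate runs of capitals and the BNIP3 window has 5, while PFKFB3, PFKFB4 and EGLN1 have 1 each and LDHB has 0. Of the 40 genes 34 were in the table, and 23 of these windows (67.6%) hold at least 1 match. The same letters occur in 57.8% of the windows of 9624 tested genes and in 43.1% of all 27305 windows. ACGTG alone occurs in 15 of the 34 windows (44.1%), against 23.5% of the windows of tested genes and 18.7% of all windows, differences that were not tested. A match is only these letters in this window. Of the 6 genes shown, LDHA, PFKFB3 and PFKFB4 have one and rose, BNIP3 and EGLN1 have one and fell, and LDHB has none and fell.

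Glucose enters through facilitative transporters, and SLC2A1 (GLUT1), the widely used one, carried nearly all of this pair's counts. SLC2A1 stood at 186, 172 and 178 CPM in TGFB1 libraries, against 191, 192 and 196 CPM in control libraries. The groups did not overlap, with TGFB1 libraries lower, but the difference did not pass (log2 fold change -0.11 ± 0.048 SE, edgeR adjusted p = 0.0589). SLC2A1-AS1, its antisense neighbour, had 47 counts over the TGFB1 and 77 over the control libraries and did not pass (edgeR adjusted p = 0.0504). SLC2A3 (GLUT3), the neuronal-type transporter, had 11 counts over the TGFB1 libraries and 28 over the control libraries, with control 3 the highest library at 1.07 CPM.

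The first enzymes of the chain moved apart, isozyme by isozyme. Hexokinases phosphorylate glucose and trap it in the cell. HK1, the widespread form bound to mitochondria, stood at 258, 271 and 245 CPM in TGFB1 libraries, against 177, 179 and 180 CPM in control libraries. Every TGFB1 library lay above every control library, a rise of 1.44-fold (edgeR adjusted p = 3.1e-10). HK2, the form often raised in tumours and a known HIF target, stood at 47.2 ± 3.81 CPM in TGFB1 and 46.2 ± 3.53 CPM in control libraries, with overlapping groups (edgeR adjusted p = 0.737). Its pseudogene HK2P1 had 51 counts over the TGFB1 and 54 over the control libraries (edgeR adjusted p = 0.76). HKDC1, a further hexokinase that is not among the 40 genes, fell to 143 ± 3.26 CPM in TGFB1 libraries, against 214 ± 2.95 CPM in control libraries (edgeR adjusted p = 2.12e-11).

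GPI, which turns glucose 6-phosphate into fructose 6-phosphate, was lower in every TGFB1 library than in every control library. Its levels were 480, 473 and 472 CPM in TGFB1 libraries, against 664, 686 and 676 CPM in control libraries, 1.42-fold lower with TGF-β1 (edgeR adjusted p = 1.06e-10). Phosphofructokinase commits sugar to glycolysis, and its liver-type gene PFKL stood at 111, 110 and 101 CPM in TGFB1 libraries, against 186, 192 and 195 CPM in control libraries. PFKL was 1.78-fold lower, with no overlap between groups (log2 fold change -0.83 ± 0.051 SE, edgeR adjusted p = 5.29e-14). The muscle-type PFKM differed little, at 225 ± 2.99 CPM in TGFB1 and 247 ± 0.816 CPM in control libraries. Its fall passed (log2 fold change -0.14 ± 0.045 SE, edgeR adjusted p = 0.0155), but the call ended without TGFB1 1 or without control 3 (edgeR adjusted p = 0.0519 and 0.0512) and with library size alone or upper quartile scaling (0.154 and 0.0521). The platelet-type PFKP stood at 412 ± 10.7 CPM in TGFB1 and 385 ± 11.5 CPM in control libraries and did not pass (edgeR adjusted p = 0.0758). PFKP was called higher when library size was the only scaling (edgeR adjusted p = 0.00459), with upper quartile scaling (0.0311) and without TGFB1 3 (0.0299).

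Both aldolase genes, whose enzymes cleave fructose 1,6-bisphosphate, fell. ALDOA stood at 1267, 1243 and 1268 CPM in TGFB1 libraries, against 1543, 1698 and 1657 CPM in control libraries, 1.30-fold lower (edgeR adjusted p = 9.48e-08). In GENCODE 29 other annotated genes share 53.5% of the exon bases of ALDOA, which can lower its count where the counter sets aside ambiguous reads. ALDOC, the brain-type aldolase, was scarce, at 10.0 ± 1.24 CPM in TGFB1 and 16.2 ± 1.37 CPM in control libraries, 1.60-fold lower (edgeR adjusted p = 7.88e-06).

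**Figure D2:**
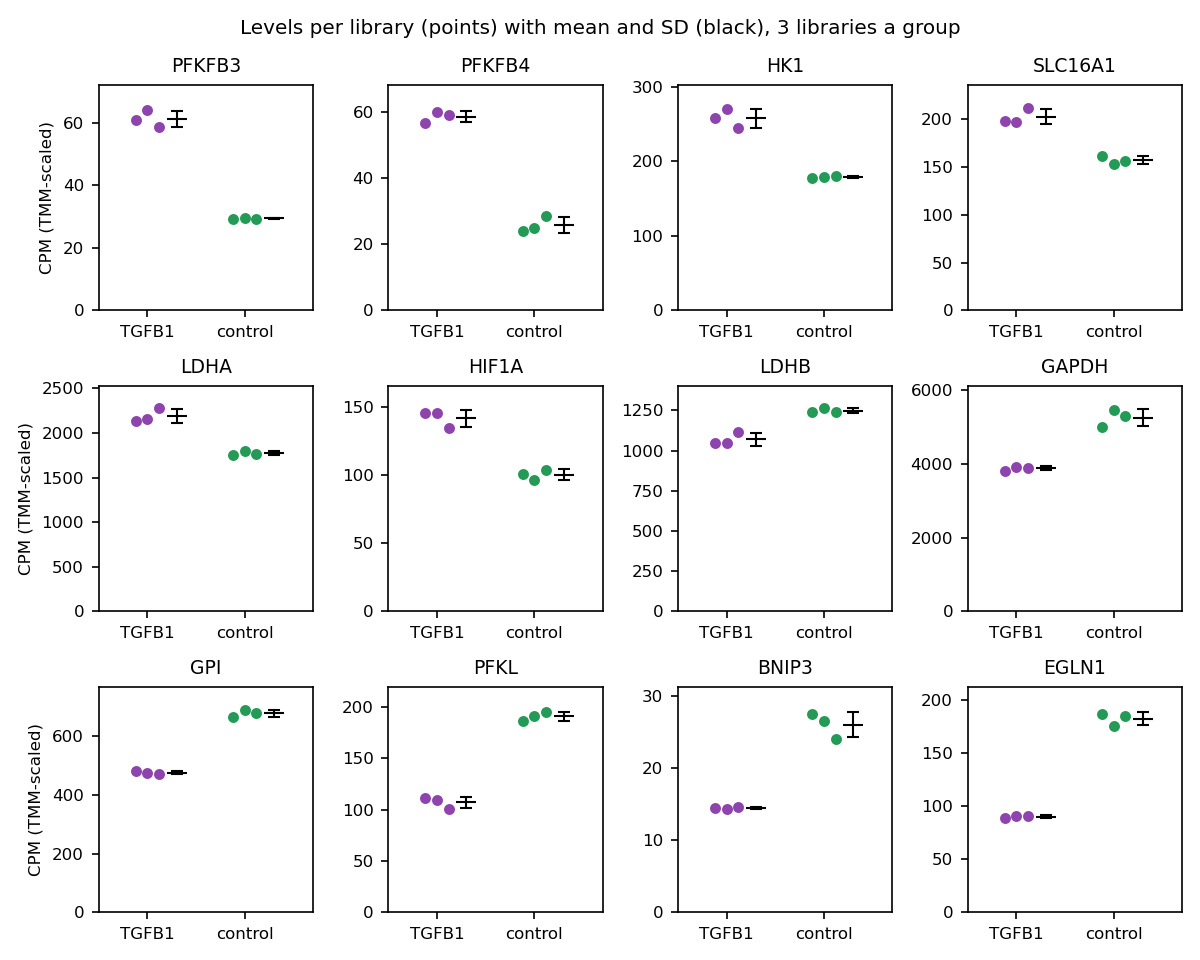
Level in each library (points, CPM after TMM scaling) of 12 genes, TGFB1 to the left of control, with mean and SD in black, and each axis starting at 0. In all 12 panels the 3 TGFB1 libraries lie entirely above (PFKFB3, PFKFB4, HK1, SLC16A1, LDHA and HIF1A) or entirely below (LDHB, GAPDH, GPI, PFKL, BNIP3 and EGLN1) the 3 control libraries.

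From triose phosphate to pyruvate 1 of the 7 genes passed (14.3%, where 47.3% of all tested genes did). GAPDH, which oxidises glyceraldehyde 3-phosphate and is widely used as a reference gene in quantitative PCR, stood at 3817, 3921 and 3893 CPM in TGFB1 libraries, against 5001, 5463 and 5288 CPM in control libraries. All TGFB1 libraries were lower, a fall of 1.35-fold (log2 fold change -0.44 ± 0.046 SE, edgeR adjusted p = 4.66e-09). GAPDH took 0.388% to 0.402% of the gene counts in TGFB1 libraries and 0.493% to 0.533% in control libraries. Its pseudogene GAPDHP1 was lower too, at 15.4 ± 2.25 CPM in TGFB1 and 24.5 ± 6.05 CPM in control libraries (edgeR adjusted p = 0.00634).

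The other genes of this stretch stayed within 1.07-fold. TPI1, which interconverts the triose phosphates, stood at 616 ± 30.8 CPM in TGFB1 and 660 ± 30.4 CPM in control libraries (edgeR adjusted p = 0.0943), and passed without TGFB1 3 or control 1 (0.0247 and 0.0284). Its processed pseudogene TPI1P1 drew 16406 counts over the TGFB1 and 17409 over the control libraries, against 27243 and 28453 for TPI1, so reads of the pair may have been divided. TPI1P1 itself was called lower with TGF-β1 (log2 fold change -0.13 ± 0.049 SE, edgeR adjusted p = 0.034). PGK1, the first step to make ATP, stood at 1046 ± 12.4 CPM in TGFB1 and 1084 ± 10.3 CPM in control libraries, lower in every TGFB1 library but not past the threshold (edgeR adjusted p = 0.353). PGAM1, a phosphoglycerate mutase, stood at 165, 169 and 194 CPM in TGFB1 libraries, against 181, 190 and 180 CPM in control libraries. TGFB1 3 was the highest of all 6, and without it PGAM1 was lower with TGF-β1 (edgeR adjusted p = 0.0182, against 0.37 with all libraries). ENO1, the widespread enolase, stood at 4261 ± 143 CPM in TGFB1 and 4463 ± 107 CPM in control libraries (edgeR adjusted p = 0.238). ENO2, the neuronal enolase, stood at 47.8 ± 3.54 CPM in TGFB1 and 44.9 ± 2.81 CPM in control libraries (edgeR adjusted p = 0.292). PKM, whose enzyme makes pyruvate, stood at 3144 ± 66.4 CPM in TGFB1 and 3040 ± 82.5 CPM in control libraries (edgeR adjusted p = 0.395). It was called higher when library size was the only scaling (edgeR adjusted p = 0.0376), and its splice forms M1 and M2 cannot be told apart in counts per gene.

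The lactate dehydrogenase genes moved in opposite directions. LDHA encodes the muscle-type subunit, which favours lactate formation, and LDHB the heart-type subunit, which favours lactate use. LDHA stood at 2139, 2152 and 2276 CPM in TGFB1 libraries, against 1753, 1795 and 1766 CPM in control libraries. LDHB stood at 1048, 1049 and 1119 CPM in TGFB1 libraries, against 1238, 1266 and 1238 CPM in control libraries. LDHA rose 1.24-fold (edgeR adjusted p = 1.69e-06) and LDHB fell 1.16-fold (edgeR adjusted p = 0.000194), neither with overlap between groups. Scaled by transcript length, LDHA made 56.5%, 56.6% and 56.4% of the pair in TGFB1 libraries and 47.4%, 47.4% and 47.6% in control libraries. The groups thus stood 9.04 percentage points apart with an SD within each of about 0.1 point, at the smallest p that 3 against 3 libraries allow (two-sided exact permutation p = 0.1). LDHAP4, a processed pseudogene of LDHA, was also higher, at 52.5 ± 1.37 CPM in TGFB1 and 43.9 ± 3.48 CPM in control libraries. Another annotated gene shares 33.4% of the exon bases of LDHB.

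Of the lactate carriers, SLC16A1 (MCT1), which moves lactate in either direction, rose 1.29-fold. It stood at 199, 198 and 212 CPM in TGFB1 libraries, against 161, 154 and 157 CPM in control libraries (edgeR adjusted p = 3.37e-07), without overlap. SLC16A1-AS1, its antisense neighbour, was also higher, with 515 counts over the TGFB1 and 406 over the control libraries (edgeR adjusted p = 0.0331), and without a stated strand setting reads of such a pair cannot be told apart. SLC16A3 (MCT4), the exporter of glycolytic cells and a HIF target, stood at 277 ± 6.88 CPM in TGFB1 and 284 ± 6.68 CPM in control libraries and did not pass (edgeR adjusted p = 0.598). SLC16A7 (MCT2) was 2.00-fold lower, at 8.10 ± 1.14 CPM in TGFB1 and 16.4 ± 2.40 CPM in control libraries.

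PFKFB enzymes make and break fructose 2,6-bisphosphate, the strongest activator of phosphofructokinase, and held the largest rises of the 40 genes. PFKFB3, the form with the most kinase over phosphatase activity, stood at 61.0, 64.0 and 58.8 CPM in TGFB1 libraries, against 29.3, 29.6 and 29.4 CPM in control libraries. It rose 2.08-fold (log2 fold change 1.06 ± 0.066 SE, edgeR adjusted p = 7.24e-14). PFKFB4, first described in testis and raised in many tumours, stood at 56.8, 60.0 and 59.0 CPM in TGFB1 libraries, against 24.0, 24.8 and 28.5 CPM in control libraries. It rose 2.27-fold (log2 fold change 1.18 ± 0.071 SE, edgeR adjusted p = 3.92e-14), and in both genes the TGFB1 libraries all lay above the control libraries. PFKFB2, the heart-type form, stood at 95.4 ± 6.53 CPM in TGFB1 and 88.1 ± 7.77 CPM in control libraries and did not pass (edgeR adjusted p = 0.133). PFKFB2 was called higher when library size was the only scaling and without control 1 (edgeR adjusted p = 0.0312 and 0.0273).

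Shares of each isozyme in its family, computed from counts per kilobase of the longest coding transcript, followed these moves. PFKFB2 made 30.7%, 32.0% and 30.4% of its family in TGFB1 libraries, against 50.7%, 45.8% and 46.1% in control libraries, while PFKFB3 and PFKFB4 made up the rest. PFKL made 14.4% ± 0.429 of phosphofructokinase in TGFB1 and 23.3% ± 0.141 in control libraries, with PFKP at 58.3% ± 0.381 and 49.4% ± 0.555 and PFKM at 27.3% in both groups. HK1 made 88.8% ± 0.302 of the HK1 and HK2 pair in TGFB1 and 84.8% ± 1.06 in control libraries. SLC16A1 made 44.7% ± 1.44 of its pair with SLC16A3 in TGFB1 and 38.0% ± 0.706 in control libraries. Shares of a family sum to 100%, so those of a pair mirror each other. Among the 10 families compared, shares of the enolase pair and of PFKM overlapped between groups and the others did not. Levels of 54.2% of all tested genes did not overlap either, and shares of other gene families were not computed. Some of the gaps were small, as for ALDOA at 99.3% of its pair in TGFB1 and 99.2% in control libraries. SLC2A3 rested on 11 and 28 counts. No share can pass a threshold of 0.05 in this design (exact permutation p of 0.1 at the least, 0.115 after adjustment over the 23 shares).

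**Figure D3:**
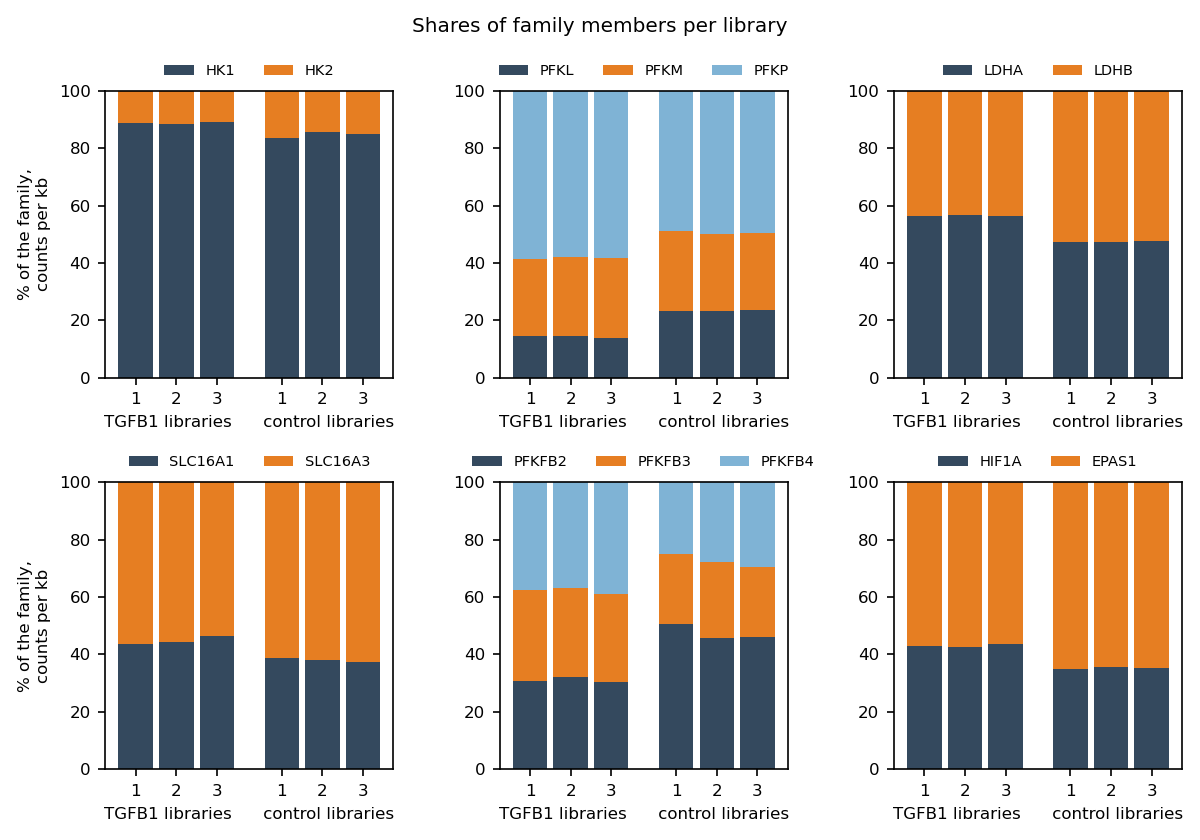
Share of each gene in its family in every library, from counts per kilobase, TGFB1 libraries to the left of control libraries, with each bar summing to 100%. LDHA lies above 56% in all TGFB1 libraries and below 48% in all control libraries, and PFKL and PFKFB2 take smaller shares in TGFB1 libraries.

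Per kilobase, the same genes led in both groups. GAPDH came first, at 2068 ± 28.6 CPM per kb in TGFB1 and 2800 ± 124 CPM per kb in control libraries. ENO1 followed, at 1817 ± 61.0 CPM per kb in TGFB1 and 1903 ± 45.5 CPM per kb in control libraries, and then PKM, at 1157 ± 24.4 CPM per kb in TGFB1 and 1119 ± 30.4 CPM per kb in control libraries. LDHA had rank 4 in TGFB1 libraries at 906 ± 31.4 CPM per kb and rank 6 in control libraries at 733 ± 8.96 CPM per kb, changing places with ALDOA and LDHB. EGLN1 stood at rank 31 in TGFB1 and rank 21 in control libraries. The levels of LDHA, LDHB and ALDOA lay apart by more than their SDs in both groups, whereas ENO2 and VHL, ranks 27 and 26 in control libraries, did not. The 15 enzyme genes from hexokinase to pyruvate kinase together took 1.61% to 1.64% of gene counts in TGFB1 libraries and 1.73% to 1.81% in control libraries, a sum led by GAPDH, ENO1 and PKM. Without GAPDH the sum was 1.212% to 1.245% in TGFB1 libraries and 1.233% to 1.279% in control libraries, and the groups overlapped. These are shares of unscaled counts. With the TMM scaling used for CPM, the sum without GAPDH was lower in every TGFB1 library than in every control library.

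Of the 7 genes of HIF subunits and oxygen sensors 1 rose, 1 fell and 5 did not pass. That is 28.6% called, 14.3% in each direction, against 47.3% of all tested genes called, 23.4% higher and 23.9% lower. HIF1A, the widely expressed HIF α subunit, stood at 146, 146 and 135 CPM in TGFB1 libraries, against 101, 96.3 and 104 CPM in control libraries. It rose 1.41-fold without overlap (log2 fold change 0.50 ± 0.053 SE, edgeR adjusted p = 5.52e-09). EPAS1 (HIF-2α), the form with more restricted targets, stood at 251, 255 and 227 CPM in TGFB1 libraries, against 245, 228 and 251 CPM in control libraries, and did not pass (edgeR adjusted p = 0.789). Per kilobase HIF1A made 43.2% ± 0.490 of the pair in TGFB1 and 35.2% ± 0.293 in control libraries.

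EGLN1 (PHD2), the main prolyl hydroxylase that marks HIF α subunits for degradation and itself a HIF target, had the lowest p of the 40 genes. Its levels were 88.4, 90.3 and 91.0 CPM in TGFB1 libraries, against 186, 175 and 185 CPM in control libraries. EGLN1 was thus 2.02-fold lower with TGF-β1 (log2 fold change -1.02 ± 0.050 SE, edgeR adjusted p = 4.3e-16). EGLN2 (PHD1) stood at 10.5 ± 0.342 CPM in TGFB1 and 11.7 ± 0.716 CPM in control libraries (edgeR adjusted p = 0.27). Other annotated genes, among them the read-through RAB4B-EGLN2 with 0 counts in every library, share 30.6% of its exon bases, which can lower its count. EGLN3 (PHD3), a strongly oxygen-regulated member, was near the limit of detection, at 1.19 ± 0.191 CPM in TGFB1 and 1.32 ± 0.0705 CPM in control libraries (53 and 57 counts). VHL, the ubiquitin ligase subunit, and HIF1AN (FIH), which hydroxylates an asparagine of HIF α, did not pass (edgeR adjusted p = 0.428 and 0.0697), with VHL at 57.2 ± 0.690 CPM in TGFB1 and 59.8 ± 2.83 CPM in control libraries. HIF1AN was lower in every TGFB1 library, at 96.2 ± 1.31 CPM in TGFB1 and 104 ± 1.63 CPM in control libraries.

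None of the 9 genes listed by role as HIF targets rose, 4 fell and 5 did not pass. That is 44.4% called, against 47.3% of all tested genes. HIFs also activate many glycolytic genes, which are listed here under other roles. Of the 23 tested genes of glucose uptake, glycolysis and lactate handling 5 rose (21.7%) and 7 fell (30.4%). Over all tested genes 23.4% rose and 23.9% fell. Those that rose were HK1, LDHA, SLC16A1, PFKFB3 and PFKFB4. BNIP3, a mitophagy receptor, stood at 14.5, 14.3 and 14.5 CPM in TGFB1 libraries, against 27.5, 26.5 and 24.1 CPM in control libraries, 1.80-fold lower (log2 fold change -0.84 ± 0.087 SE, edgeR adjusted p = 2.99e-09). Its pseudogene BNIP3P1 was lower too, at 4.22 ± 0.327 CPM in TGFB1 and 6.98 ± 0.372 CPM in control libraries. The related BNIP3L (NIX) stood at 47.8 ± 2.42 CPM in TGFB1 and 44.4 ± 2.00 CPM in control libraries (edgeR adjusted p = 0.18), and was called higher when library size was the only scaling (0.0409).

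Both carbonic anhydrases of the cell surface, which regulate pH outside the cell, fell. CA12 stood at 132, 133 and 130 CPM in TGFB1 libraries, against 176, 166 and 174 CPM in control libraries, 1.31-fold lower (edgeR adjusted p = 1.38e-07). CA9, among the most oxygen-responsive HIF1A targets, was nearly silent, at 0.339, 1.403 and 1.28 CPM in TGFB1 libraries, against 2.64, 2.43 and 1.80 CPM in control libraries (45 and 98 counts, edgeR adjusted p = 0.00428). Its log2 fold change of -1.16 ± 0.327 SE became -0.75 without TGFB1 1, the lowest library, and its exons overlap those of ARHGEF39 in 38.5% of their bases. NDRG1, a stress-induced differentiation gene, was 1.27-fold lower, at 53.5 ± 2.41 CPM in TGFB1 and 68.1 ± 2.30 CPM in control libraries (edgeR adjusted p = 2.79e-05).

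The remaining listed HIF targets did not pass. P4HA1, a collagen prolyl hydroxylase subunit, stood at 46.9 ± 1.12 CPM in TGFB1 and 50.8 ± 2.23 CPM in control libraries (edgeR adjusted p = 0.143). ADM (adrenomedullin), a vasodilator peptide, stood at 32.9, 31.4 and 44.5 CPM in TGFB1 libraries, against 29.2, 34.8 and 34.4 CPM in control libraries, with TGFB1 3 apart from the rest (edgeR adjusted p = 0.376). DDIT4 (REDD1), a stress-induced inhibitor of mTORC1, stood at 61.2 ± 6.91 CPM in TGFB1 and 66.9 ± 3.07 CPM in control libraries (edgeR adjusted p = 0.147), and was lower without TGFB1 2 (0.0424). ANKRD37, a small ankyrin-repeat gene, had 35 counts over the TGFB1 and 44 over the control libraries (edgeR adjusted p = 0.409). Overlapping genes share 41.2% of the exon bases of DDIT4 and 35.2% of those of ANKRD37.

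Genes of the same pathways outside the 40 were counted for comparison. Of 31 further glycolysis genes 19 were tested, of which 3 rose, 8 fell and 8 did not pass (median log2 fold change -0.16), which is 57.9% called, 15.8% higher and 42.1% lower, against 47.3%, 23.4% and 23.9% of all tested genes. BPGM, whose enzyme diverts 1,3-bisphosphoglycerate, rose 2.28-fold, to 37.2 ± 1.95 CPM in TGFB1 libraries, against 16.2 ± 0.546 CPM in control libraries (edgeR adjusted p = 3.01e-13). GALM, which interconverts the anomers of sugars, fell by 0.59 on the log2 scale (edgeR adjusted p = 3.16e-07). Of 18 further HIF pathway genes 16 were tested, of which 4 rose, 4 fell and 8 did not pass (median log2 fold change -0.06), and their 50% called is near the 47.3% of all tested genes. CITED2, which competes with HIF1A for the coactivators EP300 and CREBBP, fell to 17.7 ± 0.638 CPM in TGFB1 libraries, against 54.4 ± 3.48 CPM in control libraries (3.07-fold lower, edgeR adjusted p = 8.95e-17). P4HTM, a transmembrane prolyl hydroxylase, was 1.25-fold lower, TCEB2 (elongin B, a partner of VHL) 1.16-fold higher and ARNTL, a clock relative of ARNT, 1.58-fold higher. ARNT itself, at 88.4 ± 3.26 CPM in TGFB1 and 83.4 ± 6.10 CPM in control libraries, did not pass (edgeR adjusted p = 0.26), and was named after its values were seen.

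Of 48 other hypoxia targets 46 were tested, of which 24 rose, 10 fell and 12 did not pass, with a median log2 fold change of 0.30. That is 73.9% called, 52.2% higher and 21.7% lower, against 47.3%, 23.4% and 23.9% of all tested genes. The difference from the 9 listed targets was not tested. LOX and IGFBP3, which are also known targets of TGF-β, were among the genes with the lowest p in this list. LOX (lysyl oxidase), which crosslinks collagen, rose 7.20-fold, to 94.9 ± 3.14 CPM in TGFB1 libraries, against 13.2 ± 1.33 CPM in control libraries (edgeR adjusted p = 2.09e-22). IGFBP3, which binds insulin-like growth factors, rose 3.03-fold and the repressor BHLHE40 2.83-fold. VEGFA, the angiogenic factor, and PDK1, which restrains pyruvate entry into mitochondria, were named after their values were seen. VEGFA fell by 0.14 on the log2 scale, at 88.6 ± 3.19 CPM in TGFB1 and 97.4 ± 0.953 CPM in control libraries (edgeR adjusted p = 0.0393). PDK1 stood at 9.63, 11.96 and 11.5 CPM in TGFB1 libraries and averaged 13.2 ± 0.383 CPM in control libraries, and did not pass (edgeR adjusted p = 0.0577).

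**Figure D4:**
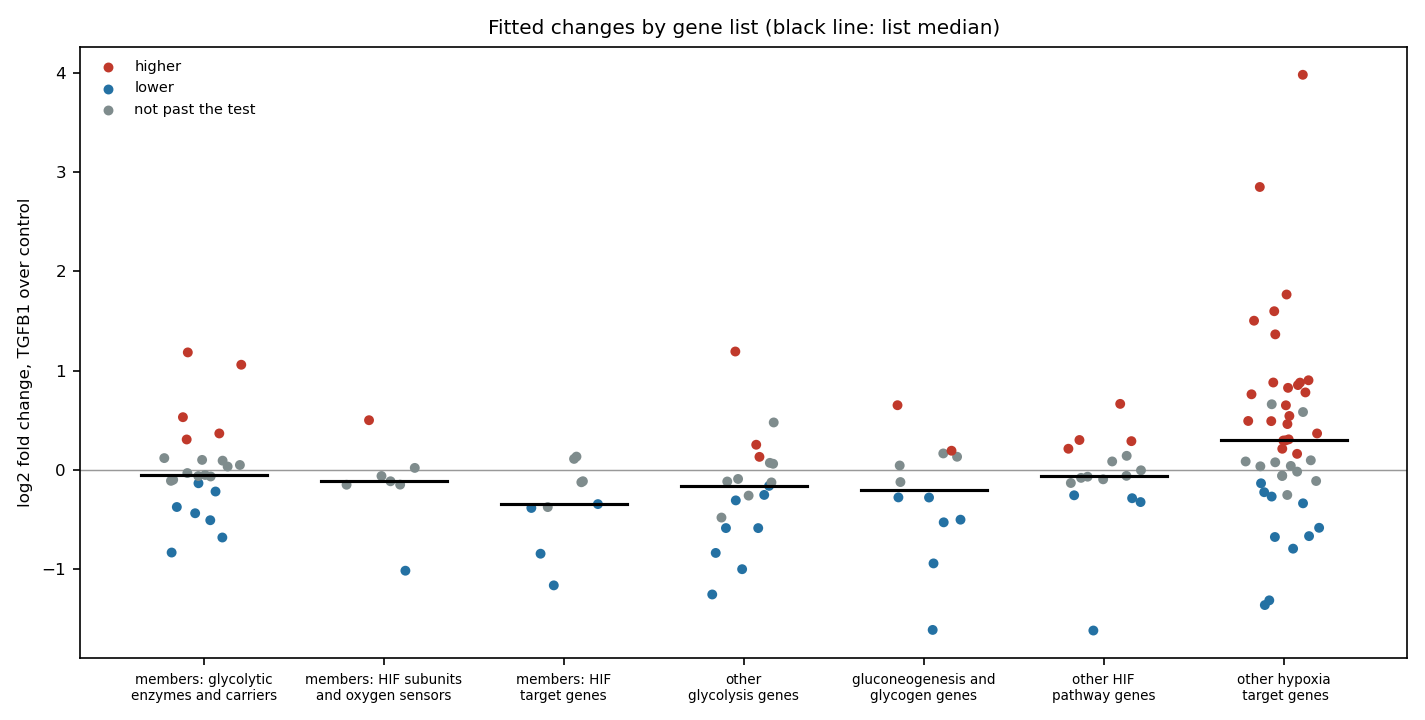
Log2 fold change of TGFB1 over control for every tested gene of the listed groups (left 3 columns) and of the further lists (right 4 columns), with the list median as a black line. Medians among the 40 are -0.05 for glycolytic enzymes and carriers, -0.12 for HIF subunits and oxygen sensors and -0.35 for listed HIF targets. The median is 0.30 for the other hypoxia targets.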

How the data were processed

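RNA-sequencing counts of 6 SW480 libraries were used, 3 TGFB1 and 3 control, grouped by their titles. The authors deposited 1 table of raw read counts per gene symbol for each library. The submitters' processing notes name the builds GRCh37 and hg19 and the tools HTSeq, TopHat and TopHat2 2.0.11, without roles. Neither annotation nor strand setting is stated. The 5 closing lines of each table hold reads not assigned to a gene (5.44% to 5.98% with no feature, 9.01% to 9.43% ambiguous, 12.0% to 12.5% aligned to several places). They were left out, which can lower the counts of genes with close copies or overlapping neighbours.

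Counts were filtered with filterByExpr (minimum count 10, minimum total 15), scaled by TMM (factors 1.02 in TGFB1 and 0.975 to 0.986 in control libraries) and tested with edgeR 4.0.16 (robust quasi-likelihood, all 6 libraries, group as the only term) in R 4.3.3. Each SE was derived from the fold change and F. Between libraries of a group the chi-square per degree of freedom over genes was 1.82 to 4.67. Each library was counted as its own sample, although this scatter does not show that they came from separate cultures. Transcript lengths and exon overlaps came from GENCODE 29, and shares were compared with an exact permutation test (scipy 1.17.1). The tests were also run on simulated counts in which few genes changed, so that run does not show how scaling affects the present results. Alternatives were DESeq2 1.42.0, limma-voom (limma 3.58.1), other scalings and filters, a block for replicate number, and fits without each library. Exon union length was added after the data were seen.

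The 40 genes, the lists and the tests were chosen with earlier results of these data known. All 40 genes are reported, with up to 4 tested genes of lowest p from each further list. Some of the pathway check genes, markers, pseudogenes and overlapping symbols are given as well. Any others are said to be named after their values were seen. The values of 1 gene that this rule names are not reported here.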

Additional observations from a re-analysis of the deposited data

How the results depend on the processing

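Of the 18 called genes 17 kept their direction and call in all 14 alternatives, and PFKM lost its call in some, as given above. Of the 21 genes not called, 7 passed in at least 1 alternative (PFKP, TPI1, PGAM1, PKM, PFKFB2, BNIP3L and DDIT4). Scaling by library size only moved the median over all tested genes from 0.00 to 0.06 (log2), and 10 of the 40 genes rose and 11 fell, against 6 and 12 with TMM; over all genes 4216 rose and 2879 fell, against 3483 and 3561. Genes with values near 0 changed sign without passing: leaving out 1 library gave log2 fold changes from -0.0284 to 0.0881 for HK2, from -0.0282 to 0.0688 for EPAS1 and from -0.0340 to 0.230 for ADM, and library size alone gave 0.00504 for PGK1 and 0.0240 for SLC16A3. Among gluconeogenesis and glycogen genes 4 rose with library size alone and 4 with upper quartile scaling, against 2.

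Same-numbered libraries did not deviate together more than others (correlations of deviations 0.031, -0.11 and -0.048 over genes). Differently numbered pairs ranged from -0.093 to 0.138. The labels state no batch or culture shared by a number, and these correlations cannot exclude one. With the replicate number as a block 17 of the 40 genes and 6775 of all genes were called, against 18 and 7044, and the gene no longer called was PFKM (edgeR adjusted p = 0.0587).

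Differences in isozyme share, in percentage points, moved with the length used while the direction held except for PFKM, which had none. From raw counts they were 5.10 for HK1, 8.45 for LDHA, 7.87 for PFKFB3, -4.85 for EGLN1, 4.36 for EGLN2, 0.489 for EGLN3 and 7.36 for HIF1A. From exon union lengths, a choice made after seeing the data, they were 5.23 for HK1, -6.50 for PFKL, -1.05 for PFKM, 7.56 for PFKP, 0.258 for ALDOA, -5.21 for EGLN1, 4.74 for EGLN2 and 0.474 for EGLN3. Depth limits CA9, EGLN3, ANKRD37 and SLC2A3, with fewer than 100 counts in each group.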

Other observations

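Of 17 genes of gluconeogenesis and of glycogen synthesis and breakdown 12 were tested. Of these 2 rose, 6 fell and 4 did not pass (median log2 fold change -0.20 beside 0.00 over all tested genes). That is 66.7% called, 16.7% higher and 50% lower, against 47.3%, 23.4% and 23.9% of all tested genes, and no test of the list was made. PC, pyruvate carboxylase, which feeds pyruvate into oxaloacetate, fell most, to 30.3 ± 0.869 CPM in TGFB1 libraries, against 92.8 ± 6.47 CPM in control libraries (3.06-fold lower, edgeR adjusted p = 6.06e-18). GYS1, the muscle-type glycogen synthase, was 1.44-fold lower, at 91.0 ± 4.50 CPM in TGFB1 and 131 ± 1.22 CPM in control libraries (edgeR adjusted p = 1.77e-09). Of the subunits that direct a phosphatase to glycogen, PPP1R3D fell 1.92-fold and PPP1R3B rose 1.57-fold (edgeR adjusted p = 2.68e-08 and 4.96e-06). G6PC, the glucose 6-phosphatase of liver, had 0 counts in all 6 libraries, and PCK1 and FBP1 had at most 12 counts over a group; these were named after their values were seen.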
